A study of Mus musculus with 6 samples.

Results

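Melanosomes, the organelles that make and store melanin, are built from endosomes, and their enzymes reach them through a set of cytosolic protein complexes. BLOC-1, BLOC-2 and BLOC-3 (biogenesis of lysosome-related organelles complexes) and the adaptor AP-3 load cargo such as tyrosinase, and loss of their subunits lightens mouse coats and causes Hermansky-Pudlak syndrome in people. AP-1 sorts cargo at the trans-Golgi network and endosomes, AP-2 works with clathrin at the plasma membrane, HOPS tethers late endosomes before fusion, and retromer returns receptors from endosomes. The 38 genes described here encode subunits of these complexes together with Lyst, Rabggta and Ostm1, whose mouse mutants also have changed coat colour. They were chosen by symbol, 38 genes of the 22740 entries in the count table, and fill 39 entries because Ap1g1 is listed under 2 gene identifiers.

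The data come from B16-F3, a mouse melanoma cell line, sorted by the light scatter of melanin into a high-pigmented (HPC) and a low-pigmented (LPC) population, with no other treatment or genetic change named. Each population gave 3 libraries from total RNA, read from transcript 3′ ends. Library totals ran from 14695822 to 22186743 counts. The labels name no separate cultures or sorts behind the replicates, so p-values cover only how these libraries varied, and that variation may be technical. All 7 melanocyte markers were tested genes, with a summed level of 33388 to 36860 CPM (counts scaled to library size with TMM, which corrects for library composition) in HPC and 32192 to 34636 CPM in LPC. Of 8 immune markers 4 had no count in any library, Ptprc among them. The immune markers' summed level was 8.16 to 15.7 CPM in HPC and 3.91 to 9.04 CPM in LPC, and their part in the results below was not tested. Most of that sum was 1 gene, Cd68. It read 12.9, 6.95 and 10.2 CPM in HPC replicates 1, 2 and 3 against 2.63, 4.23 and 7.10 CPM in LPC. Of 9 stromal and epithelial markers 4 were also at 0 throughout, and their sum was at most 4.12 CPM. Values by library are listed below in the order of replicates 1, 2 and 3.

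None of the sorting complex genes passed the test between high- and low-pigmented cells with edgeR's quasi-likelihood F test (Benjamini-Hochberg adjusted p under 0.05). Of the 39 entries 38 passed the low-count filter, and 0 were called, against 5 of 11921 tested genes (0.0419%). At an unadjusted p under 0.05 there were also 0 members, where 9.37% of all tested genes lay. DESeq2 and limma-voom called 0 as well, against 1.88% and 0.0419% of all genes. In sorted bulk samples, fewer cells of a kind and less RNA per cell cannot be told apart. Fitted log2 fold changes of HPC over LPC ran from -0.26 to 0.37 with a median of 0.03, beside a median of -0.0091 over all tested genes, and 20 were above 0 and 18 below. The 95% intervals of 36 of the 38 lay within 1.5-fold either way, which held for 56.2% of all tested genes. The 2 exceptions were Ap1s2 and Lyst, and all 38 intervals lay within 2-fold. The median absolute log2 fold change was 0.097 in the members and 0.14 over all tested genes. Tested members averaged 10.5 to 388 CPM, while all tested genes include many at lower levels. Of the 9171 tested genes of 10 to 500 CPM, 6383 had intervals within 1.5-fold, and their median absolute log2 fold change was 0.12. Blocking on the replicate number, edgeR again called 0 members, where it called 2.52% of all genes (1.43% higher, 1.1% lower), and Ap1s2 and Dtnbp1 had an unadjusted p under 0.05, as 18.8% of all genes did. Leaving out the pair numbered 1 from the blocked fit gave 3 calls, Vps33a and Lyst higher and Bloc1s5 lower, with 24.5% of all genes called. That fit rests on 4 libraries with 1 residual degree of freedom.

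**Figure D1:**
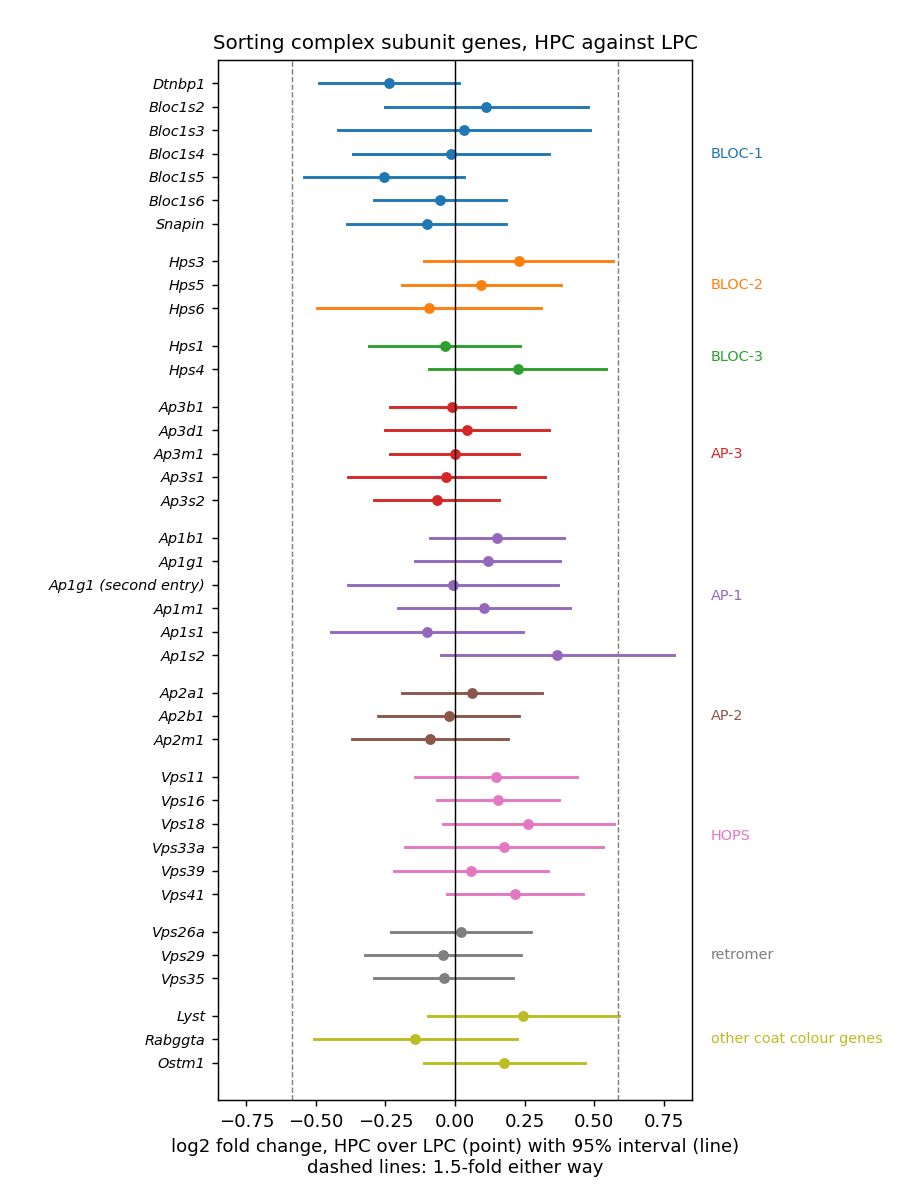
Log2 fold change of HPC over LPC (x axis) for each tested sorting complex gene (rows, coloured by complex), with points for the edgeR estimate without the replicate block and lines for its 95% interval. No gene passed the test, and only the intervals of Ap1s2 and Lyst reach beyond the dashed lines at 1.5-fold.

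BLOC-1 hands cargo from early endosomes to melanosome-bound carriers, and its 8 subunits include dysbindin (Dtnbp1, mutated in sandy mice), muted (Bloc1s5), pallidin (Bloc1s6, pallid mice), cappuccino (Bloc1s4) and the SNARE-associated Snapin. Of 7 tested subunits 5 had log2 fold changes below 0, with a median of -0.05. The library medians on the log2 scale, relative to each gene's mean over 6 libraries, were -0.01, -0.03 and -0.04 for HPC against -0.0087, 0.03 and 0.15 for LPC. LPC replicate 3 stood above the other libraries.

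Dtnbp1 read 168, 190 and 180 CPM in the HPC libraries against 212, 228 and 195 CPM in the LPC libraries. All HPC libraries were below all LPC libraries, although HPC replicate 2 and LPC replicate 3 nearly met. The means were 179 ± 10.8 and 211 ± 16.3 CPM (SD, n = 3 each), a log2 fold change of -0.24 with a 95% interval of -0.49 to 0.01 (edgeR, SE 0.11, adjusted p = 0.57). Bloc1s5 read 29.9, 30.8 and 25.9 CPM in the HPC libraries against 32.9, 34.4 and 36.02 CPM in the LPC libraries. Its groups did not overlap either, and its log2 fold change of -0.26 had an interval of -0.54 to 0.03 (edgeR adjusted p = 0.61). Bloc1s6 was the steadiest of the non-overlapping members, with 40.9, 40.9 and 40.2 CPM in the HPC libraries against 41.2, 41.6 and 43.9 CPM in the LPC libraries. Its log2 fold change was -0.05, with an interval of -0.29 to 0.18. In total 5 members had non-overlapping groups, these 3 lower in HPC and Vps16 and Vps41 higher, beside 14.3% of all tested genes (7.18% lower and 7.16% higher). The sign was the same in all 3 pairs for 11 members above 0 (19.6% of all tested genes) and 6 below (21.3%).

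The other BLOC-1 subunits overlapped between the groups, with log2 fold changes of -0.10 for Snapin, -0.01 for Bloc1s4, 0.03 for Bloc1s3 and 0.11 for Bloc1s2. Snapin overlaps the gene Ilf2 on the opposite strand, and the use of strand in counting is not given in the sources used here. Dtnbp1 (ENSMUSG00000057531) lies on chromosome 13 from 44922075 to 45002147, Bloc1s5 (ENSMUSG00000038982) on chromosome 13 from 38592842 to 38635109, both on the minus strand, and Bloc1s6 (ENSMUSG00000005804) on chromosome 2 from 122738503 to 122749475 (plus strand), in GRCm38.

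Bloc1s1 was the only member not tested. It had 15, 3 and 3 counts in the HPC libraries against 4, 5 and 8 in the LPC libraries, too few for a comparison. The gene (ENSMUSG00000090247, chromosome 10 from 128917882 to 128924035, minus strand, GRCm38) overlaps Rdh5 on the same strand in GENCODE M21, and 720 of its 1288 exonic bases (55.9%) are also exonic in Rdh5. Rdh5 itself had 84 to 129 counts per library. Whether reads of Bloc1s1 were lost to this overlap was not tested, so its counts are not a level of the transcript.

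BLOC-2 (Hps3, Hps5, Hps6) steers carriers to melanosomes, and BLOC-3 (Hps1, Hps4) activates RAB32 and RAB38 as their exchange factor. Hps3, mutated in cocoa mice, read 160, 134 and 125 CPM in the HPC libraries against 132, 99.5 and 126 CPM in the LPC libraries. The groups overlapped, and the log2 fold change was 0.23 with an interval of -0.11 to 0.57 (edgeR adjusted p = 0.70). Hps5 and Hps6 had log2 fold changes of 0.09 and -0.09, so the 3 subunits did not share a direction. Hps4, mutated in light ear mice, read 66.4, 50.4 and 62.7 CPM in the HPC libraries against 47.4, 49.2 and 56.8 CPM in the LPC libraries, with a log2 fold change of 0.22 and an interval of -0.09 to 0.54 (edgeR adjusted p = 0.69). HPC replicate 2 lay among the LPC libraries. Its partner Hps1, mutated in pale ear mice, had a log2 fold change of -0.04. Hps3 (ENSMUSG00000027615) spans 19995945 to 20035315 of chromosome 3 (minus strand) and overlaps Cp on the opposite strand. Hps4 (ENSMUSG00000042328) spans 112343083 to 112378414 of chromosome 5 (plus strand), in GRCm38.

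AP-3 carries tyrosinase from endosomes to melanosomes, and its beta (Ap3b1, pearl mice) and delta (Ap3d1, mocha mice) subunits are needed for normal pigment. Its 5 subunits among the 38 genes lay closest to 0 of the complexes with more than 3 members, from -0.07 for Ap3s2 to 0.04 for Ap3d1. This holds only for that list. Ap3m2, a second medium subunit kept with the other adaptor subunits, lay at 0.48 (interval -0.09 to 1.06, edgeR adjusted p = 0.62). Ap3s2, a sigma subunit, read 91.5, 88.6 and 82.6 CPM in the HPC libraries against 93.0, 91.1 and 90.9 CPM in the LPC libraries. HPC replicate 1 lay within the LPC range, and the interval was -0.29 to 0.16 (edgeR adjusted p = 0.89). Ap3b1 averaged 166 ± 4.07 CPM (SD, n = 3) across HPC and 167 ± 7.70 CPM across LPC, and the medium subunit Ap3m1 averaged 58.2 ± 2.39 and 58.3 ± 2.97 CPM, in the same order.

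The largest single estimate with all libraries was in AP-1, but it rested in part on 1 library. Ap1s2, a sigma subunit encoded on the X chromosome (ENSMUSG00000031367, from 163909017 to 163933666, plus strand, GRCm38), read 70.0, 45.9 and 51.7 CPM in the HPC libraries against 44.5, 36.6 and 48.8 CPM in the LPC libraries. HPC replicate 1 stood far above the others, and HPC replicate 2 lay below LPC replicate 3. The log2 fold change was 0.37 with an interval of -0.05 to 0.79 (edgeR SE 0.18, adjusted p = 0.61), and the difference was positive in each pair, at 0.65, 0.32 and 0.08 by pair. Without HPC replicate 1 it was 0.18, below the values of Lyst and Ap1b1 in that fit. Ap1s1, the other sigma subunit listed, had a log2 fold change of -0.10. The large subunits Ap1b1 and Ap1g1 and the medium subunit Ap1m1 had values of 0.15, 0.12 and 0.10, while the second entry named Ap1g1 (ENSMUSG00000096262, not found in GENCODE M21) had -0.0072. The 3 AP-2 subunits among the members ran from -0.09 for Ap2m1 to 0.06 for Ap2a1. Ap2a2 and Ap2s1, kept with the other adaptor subunits, lay at -0.10 and -0.12. Ap2m1, the medium subunit that binds cargo, read 56.4, 53.0 and 48.3 CPM in the HPC libraries against 55.9, 61.9 and 50.1 CPM in the LPC libraries, so the groups overlapped (interval -0.37 to 0.19, edgeR adjusted p = 0.88).

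**Figure D2:**
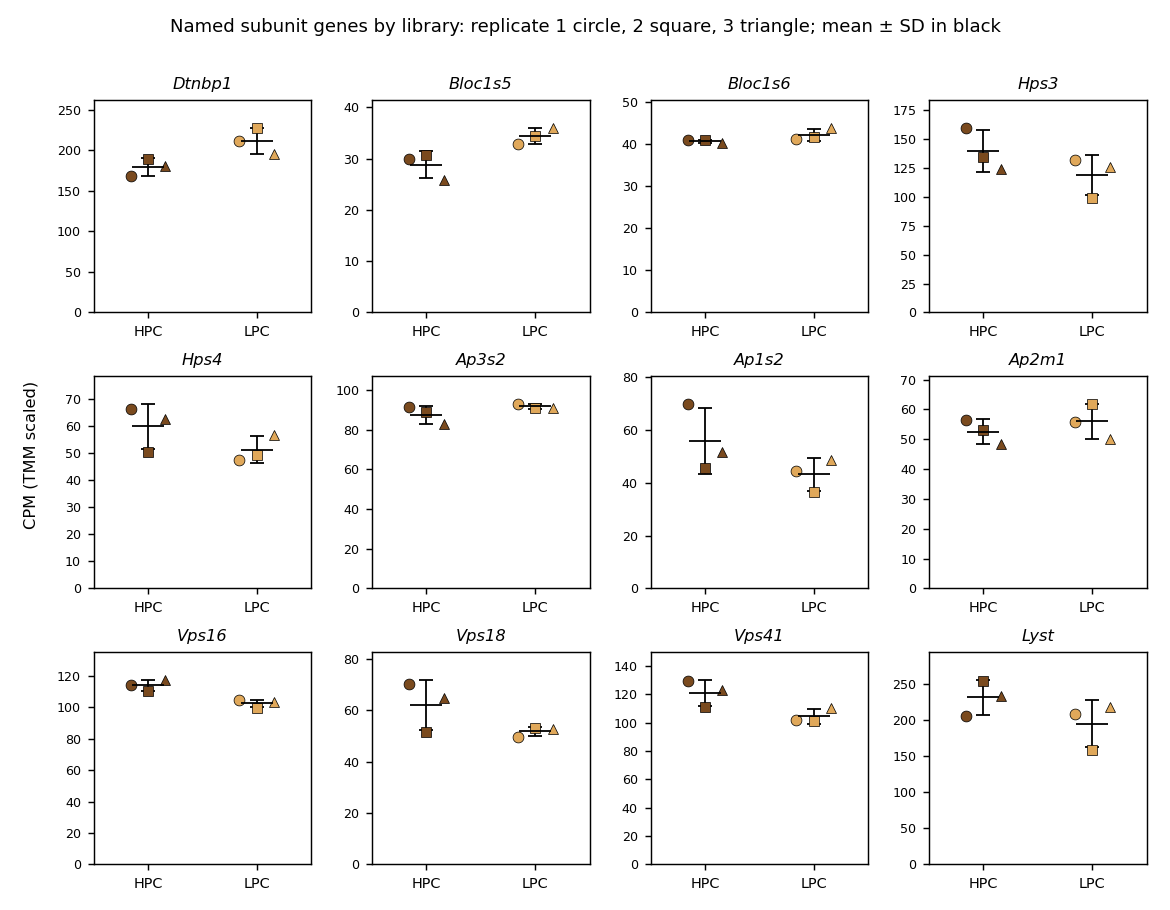
CPM after TMM scaling (y axis, from 0) of 12 members in HPC and LPC, with 1 symbol per replicate number and the mean ± SD in black. The groups are apart in Dtnbp1, Bloc1s5, Bloc1s6, Vps16 and Vps41, and in the other 7 genes they overlap.

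The HOPS estimates all lay above 0, where those of BLOC-1 mostly lay below, and no HOPS gene passed the test. Vps11, Vps16, Vps18 and Vps33a (buff mice) form the core shared with the early endosomal tether CORVET, and Vps39 and Vps41 are specific to HOPS. The 6 log2 fold changes ran from 0.06 for Vps39 to 0.26 for Vps18 with a median of 0.16, and Vps39 turned below 0 without HPC replicate 3 (-0.0015) or LPC replicate 1 (-0.02). The library medians, relative to each gene's mean, were 0.18, 0.0017 and 0.14 for HPC against -0.14, -0.12 and -0.05 for LPC. HPC replicate 2 stood between the other HPC libraries and the LPC libraries, and without it the HOPS median was 0.23. Over all tested genes 48.2% had log2 fold changes above 0. The difference between HOPS and BLOC-1 was not tested.

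Vps18 read 70.3, 51.5 and 64.8 CPM in the HPC libraries against 49.8, 53.1 and 52.6 CPM in the LPC libraries. HPC replicate 2 lay among the LPC libraries, and the other HPC libraries were above them (log2 fold change 0.26, interval -0.04 to 0.57, edgeR adjusted p = 0.62). Vps41 read 129, 111 and 123 CPM in the HPC libraries against 102, 101 and 110 CPM in the LPC libraries. Its groups did not overlap, with HPC replicate 2 just above LPC replicate 3 (log2 fold change 0.21, interval -0.03 to 0.46, edgeR adjusted p = 0.61). Vps16 read 114, 110 and 117 CPM in the HPC libraries against 104, 99.6 and 103 CPM in the LPC libraries, a small and even difference (log2 fold change 0.15, interval -0.06 to 0.37, edgeR adjusted p = 0.69). Vps11 and Vps33a had log2 fold changes of 0.15 and 0.17, and their groups overlapped. Vps18 (ENSMUSG00000034216) lies on chromosome 2 from 119288740 to 119298453, Vps16 (ENSMUSG00000027411) on chromosome 2 from 130424339 to 130444269, and Vps41 (ENSMUSG00000041236) on chromosome 13 from 18717286 to 18866811, all on the plus strand in GRCm38. Vps16 overlaps Pced1a on the opposite strand.

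The retromer trimer, Vps26a, Vps29 and Vps35, lay from -0.04 to 0.02. Vps29 read 113, 119 and 93.2 CPM in the HPC libraries against 112, 117 and 107 CPM in the LPC libraries (interval -0.32 to 0.24, edgeR adjusted p = 0.96). Vps35, the scaffold subunit, read 310, 342 and 290 CPM in the HPC libraries against 333, 329 and 307 CPM in the LPC libraries (interval -0.29 to 0.21). Replicate 3 was the lowest library of its group for all 3 subunits in HPC and in LPC. Lyst, a lysosomal trafficking regulator mutated in beige mice and in Chediak-Higashi syndrome, read 207, 255 and 234 CPM in the HPC libraries against 209, 159 and 219 CPM in the LPC libraries. The difference lay mostly in the pair numbered 2, at 0.68 on the log2 scale against -0.02 and 0.10 in the pairs numbered 1 and 3, and the log2 fold change was 0.25 (interval -0.10 to 0.59, edgeR adjusted p = 0.69). Ostm1, a subunit of a lysosomal chloride transporter mutated in grey-lethal mice, and Rabggta, a Rab prenylation enzyme subunit mutated in gunmetal mice, had log2 fold changes of 0.18 and -0.14.

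**Figure D3:**
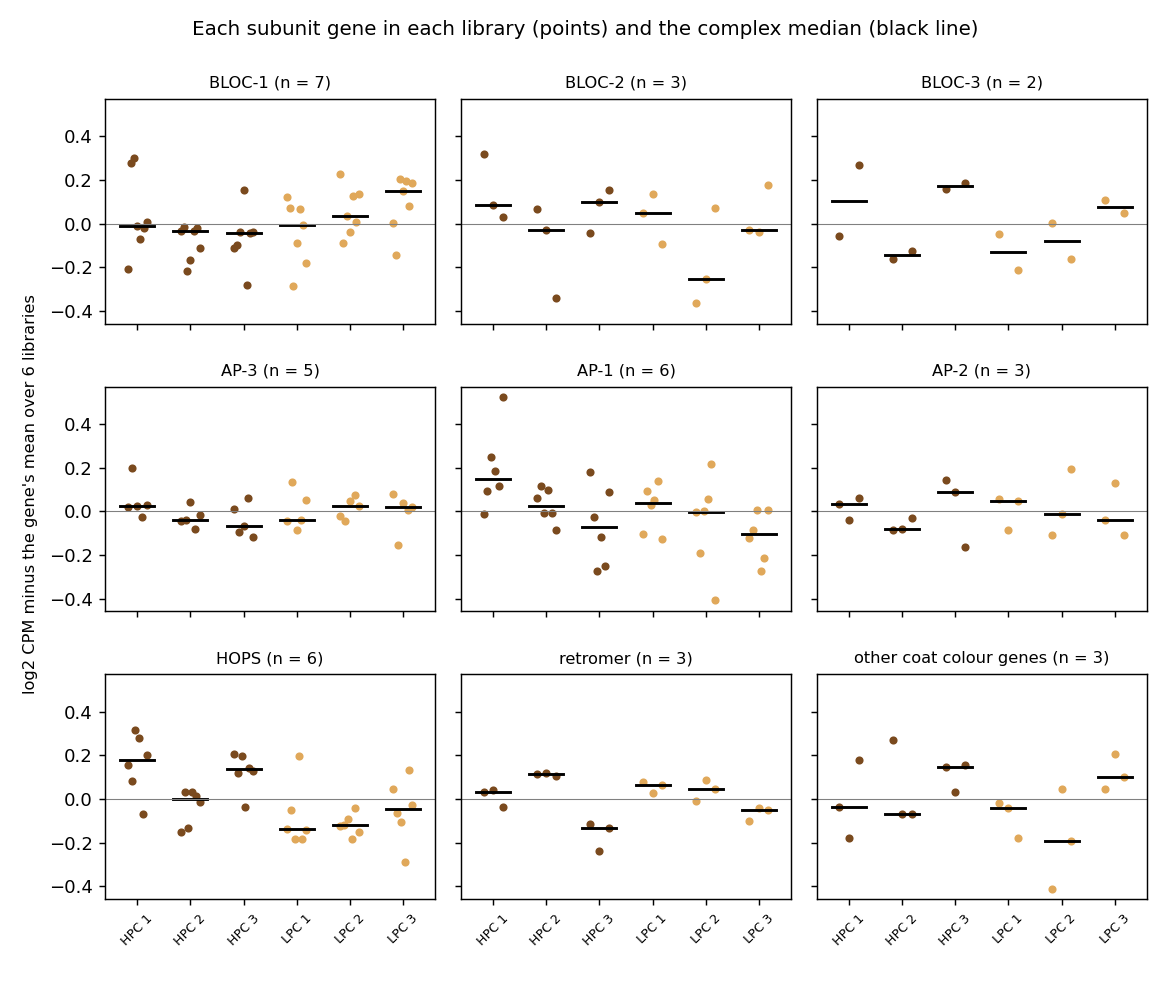
Log2 CPM of each tested member minus its own mean over 6 libraries (y axis) in HPC and LPC replicates 1 to 3 (x axis), by complex, with black lines for the complex median in a library. HOPS medians are 0.18, 0.0017 and 0.14 in HPC and all below 0 in LPC. Single genes scatter as widely, as Ap3d1 of AP-3 does from 0.20 in HPC replicate 1 to -0.16 in LPC replicate 3.

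Since several complexes serve both lysosomes and melanosomes, the upstream sequences of the members were read for the E-box letters CACGTG, a motif that MITF, TFEB and MYC family factors can bind. RefSeq promoter entries on GRCm38.p6, from 250 bases before to 50 after a start, were matched by symbol for 31 of the 38 members. CACGTG, which reads the same on both strands, was in at least 1 window of 10 of the 31 (32.3%), against 12.0% of 8929 tested genes with an entry and 8.09% of all 27025 genes with an entry. The longer TCACGTG, searched on both strands and always holding CACGTG, was in 9 (29.0%), against 7.21% and 4.29%. CATGTG, searched on both strands, was in 4 (12.9%), against 9.81% and 15.9%. The 10 genes with CACGTG were Bloc1s1, Bloc1s3, Hps3, Hps5, Hps1, Ap1s2, Ap2m1, Vps16, Vps33a and Vps26a, and none of the 4 AP-3 genes with an entry held it.

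The position of the motif varied among them. Counted from the RefSeq start, its first base lay at -28 and -12 in Vps33a, -19 and -3 in Bloc1s1, -18 in Vps16, -15 in Hps3, -8 in Bloc1s3 and -1 in Hps1. It lay farther off in Ap1s2 (-115), Ap2m1 (-174) and Hps5 (-227 and -192), and in Vps26a, which has 2 windows, at -182 and 32 in one and -175 and -151 in the other. Stretches of 60 bases are shown for 6 genes, 5 of those with a match near the start and Ap1s2, which had the largest estimate with all libraries. For the first 5 the stretch ends at the base before the start in the RefSeq table, and for Ap1s2 it ends 83 bases before it. Except for Ap1s2, these starts differ from those of the GENCODE M21 genes: the stretch of Bloc1s1 lies inside its GENCODE gene, and those of Vps33a and Hps3 overlap theirs in part. Capitals mark each CACGTG that lies whole within a stretch, the last 3 bases of the Bloc1s1 line begin its second match, and each line runs 5′ to 3′ on the gene's strand.
Vps33a: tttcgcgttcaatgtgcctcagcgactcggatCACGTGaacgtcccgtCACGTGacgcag
Vps16: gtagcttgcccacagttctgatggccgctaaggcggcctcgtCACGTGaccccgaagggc
Hps3: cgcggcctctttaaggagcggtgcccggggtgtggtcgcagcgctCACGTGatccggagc
Bloc1s3: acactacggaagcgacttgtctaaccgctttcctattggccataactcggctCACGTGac
Bloc1s1: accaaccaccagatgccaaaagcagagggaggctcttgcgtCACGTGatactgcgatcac
Ap1s2: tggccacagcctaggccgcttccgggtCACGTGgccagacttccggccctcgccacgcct

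These stretches lie at chr5:123573016-123573075 (minus strand) for Vps33a, chr2:130424260-130424319 (plus) for Vps16, chr3:20035311-20035370 (minus) for Hps3, chr7:19508371-19508430 (minus) for Bloc1s3, chr10:128923525-128923584 (minus) for Bloc1s1 and chrX:163908875-163908934 (plus) for Ap1s2. The 9 tested members with CACGTG had a median log2 fold change of 0.09, and the 21 tested members with an entry and no CACGTG had -0.0009. Over all tested genes with an entry the medians were -0.0009 with the motif and -0.0066 without. The HOPS genes Vps18 and Vps41, which had the largest estimates of their complex, were not among the genes with a match. Of the 6 HOPS genes 4 had an entry, and a gene without one was not searched. A match is a run of letters and not a bound site.

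Other genes of the same pathways were read in 6 lists. Without the block edgeR called 0 of their 60 tested genes, against 0.0419% of all tested genes. At an unadjusted p under 0.05 there were 6, where 9.37% of all tested genes lay. With limma-voom 0 were called and with DESeq2 Tyr, against 0.0419% and 1.88% of all genes. With the block edgeR called Tyr and Oca2, both higher in HPC, and 2.52% of all genes. DESeq2 with the block called Tyr, Slc45a2 and Mfsd12, and 500 of 11921 genes (4.36% of those that it gave an adjusted p). The related genes called in these fits of all 6 libraries are all melanosome cargo, that is, proteins that the complexes deliver or that act in the melanosome membrane. The blocked fit without the pair numbered 1 also called genes of the machinery, as given further below. The median log2 fold change of the 12 cargo genes was 0.30, beside 0.03 for the sorting complex genes and -0.0063 for the 48 other related genes. Of the 12 cargo genes 9 had values above 0 (48.2% of all tested genes did). The 3 below were Dct (-0.07), Mlana (-0.08) and Tpcn2 (-0.13). Tyrp1 (0.20) and Pmel (0.10) were above 0 with overlapping groups.

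Tyr, for tyrosinase, read 908, 855 and 994 CPM in the HPC libraries against 261, 62.2 and 238 CPM in the LPC libraries. All HPC libraries lay far above all LPC libraries, and the fitted log2 fold change was 2.30 without the block (edgeR adjusted p = 0.17) and 2.52 with it (edgeR adjusted p = 0.021). Oca2, a melanosomal chloride channel protein that BLOC-1 delivers, read 110, 131 and 156 CPM in the HPC libraries against 20.04, 50.1 and 98.8 CPM in the LPC libraries. Its log2 fold change was 1.23 without the block (edgeR adjusted p = 0.48) and 1.46 with it (edgeR adjusted p = 0.047). The transporter gene Slc45a2 read 1516, 1221 and 1225 CPM in the HPC libraries against 1050, 973 and 1050 CPM in the LPC libraries (log2 fold change 0.37, edgeR adjusted p = 0.42). Mfsd12 read 45.4, 36.8 and 75.4 CPM in the HPC libraries against 25.4, 31.7 and 47.2 CPM in the LPC libraries, so its groups overlapped. The log2 fold change of Mfsd12 was 0.60 without the block (edgeR adjusted p = 0.62) and 0.57 with it (edgeR adjusted p = 0.075).

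**Figure D4:**
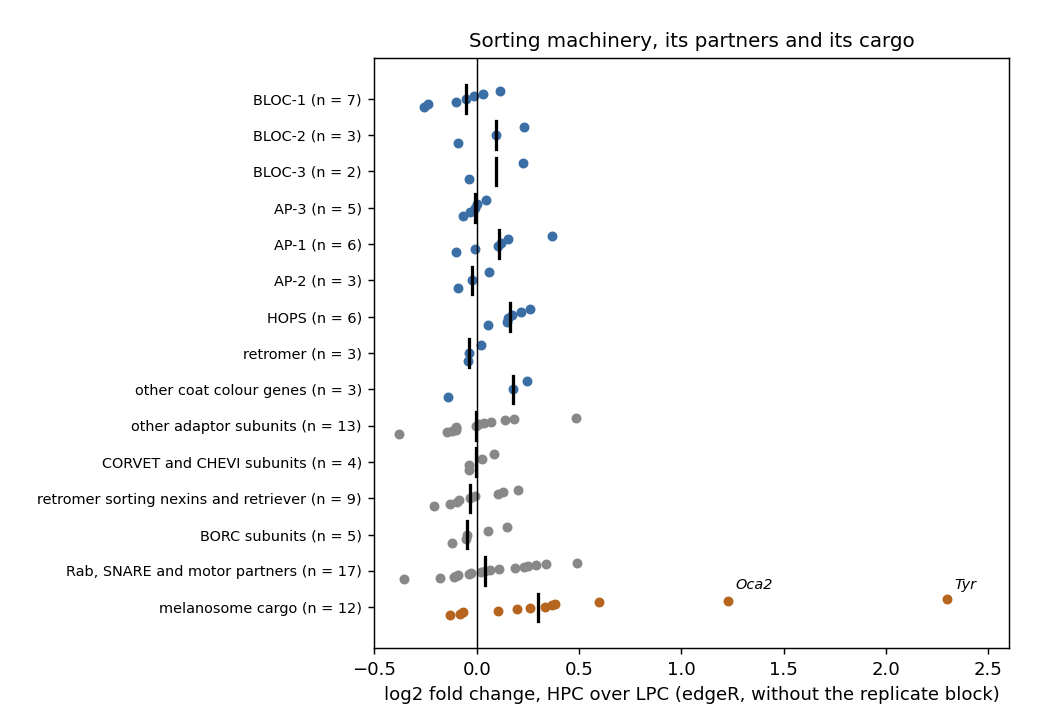
Log2 fold change of HPC over LPC (x axis) of each tested gene in the sorting complexes (blue), in lists of related machinery (grey) and in melanosome cargo (brown), with black bars for list medians. Sorting complex genes lie between -0.26 and 0.37, while Oca2 and Tyr lie at 1.23 and 2.30, although edgeR called neither without the block.

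Among the machinery that was not in the 38 genes, Clcn7, the chloride transporter that pairs with Ostm1, read 285, 267 and 290 CPM in the HPC libraries against 248, 221 and 222 CPM in the LPC libraries. Stx12, an endosomal SNARE that works with BLOC-1, read 149, 163 and 171 CPM in the HPC libraries against 107, 130 and 145 CPM in the LPC libraries. Neither overlapped between the groups and neither passed (log2 fold changes 0.29 and 0.34, edgeR adjusted p = 0.46 and 0.49). In their list of 17 tested Rab, SNARE and motor partners, 10 values lay above 0 and 7 below, with a median of 0.04. Among those below were Rab9a (-0.36), Rab38 (-0.18) and Rab32 (-0.10). Of 13 other adaptor subunits 6 had values above 0, with a median of -0.0030. Ap3m2, the second medium subunit of AP-3, read 58.4, 42.3 and 69.1 CPM in the HPC libraries against 31.1, 35.1 and 55.2 CPM in the LPC libraries (log2 fold change 0.48, interval -0.09 to 1.06, edgeR adjusted p = 0.62), and Ap5m1 had a value of 0.18.

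Of 9 sorting nexin and retriever genes 3 had values above 0. Snx5, a sorting nexin of the retromer pathway, read 203, 213 and 196 CPM in the HPC libraries against 236, 244 and 227 CPM in the LPC libraries (log2 fold change -0.21, interval -0.44 to 0.02, edgeR adjusted p = 0.58), and its groups did not overlap. Its partner Snx1 had a value of 0.20 with overlapping groups. The 4 CORVET and CHEVI genes, which form the tethers related to HOPS, lay from -0.04 for Vipas39 to 0.08 for Tgfbrap1, beside the HOPS median of 0.16. The 5 BORC genes, which share subunits with BLOC-1 and position lysosomes, lay from -0.12 for Kxd1 to 0.15 for Borcs8. None of these passed.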

How the data were processed

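The authors deposited raw counts per gene, with 1 column for each of the 6 libraries, matched to samples by name. Per the labels' protocols, libraries were made with a Lexogen QuantSeq 3′ mRNA-Seq FWD kit and sequenced on a NextSeq 500. The submitters' processing notes name STAR and GRCm38, while the read counter, annotation release, use of strand and handling of molecular identifiers are not stated there. Reads at 3′ ends do not scale with transcript length, and shared ends can be miscounted. Depth was 14695822 to 22186743 counts per library.

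Genes were filtered with filterByExpr (11921 kept), scaled with TMM and tested with edgeR 4.0.16's quasi-likelihood test (R 4.3.3) on a design holding only group (4 residual degrees of freedom), Benjamini-Hochberg adjusted over all tested genes. Standard errors and 95% intervals were derived from the F statistic, and list levels by library used log2 CPM with a prior count of 2. Deviations from group means correlated at 0.42, 0.35 and 0.65 for the pairs numbered 1, 2 and 3, all over 0.1. HPC replicate 2 with LPC replicate 1 also passed 0.1, at 0.20, and the other unequal combinations lay from -0.59 to -0.05. The numbers were taken as pairs on this evidence, which the labels do not give. It comes from the same counts that the blocked fit tests. Deviations within a group cancel out, so the unequal combinations are not independent of the equal ones. A blocked fit (2 residual degrees of freedom) is given where it changes a call. Alternatives were RLE, upper quartile and library size scaling, DESeq2 1.42.0, limma-voom 3.58.1, other filters, each library or pair left out and, added after seeing the data, both Ap1g1 entries summed. The members, lists and named-gene rule (members called, with non-overlapping groups, or with the largest change or smallest p of their complex; of related lists, called genes or the lowest p) were chosen with earlier results of these data known. Current symbols absent from the table were matched by gene identifier or synonym. Coordinates are from GENCODE M21.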

Additional observations from a re-analysis of the deposited data

How the results depend on the processing

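The count of called members was 0 without the block under every scaling, tool and filter tried and without any single library, and 0 with the replicate block in edgeR and DESeq2. Leaving out libraries or pairs, it ran from 0 to 3, the 3 coming without the pair numbered 1. Of the 60 tested related genes, 1 was called with DESeq2, 2 with the replicate block and 3 with DESeq2 and the replicate block. Those fits called 1.88%, 2.52% and 4.36% of the genes that they gave an adjusted p. Leaving out libraries or pairs, 0 to 12 related genes were called. The 12 came without the pair numbered 1, where 24.5% of all genes were called. They were the cargo genes Tyr, Oca2, Atp7a, Slc45a2, Mlana and Mfsd12 and the machinery genes Ap2s1, Ap3m2, Rab9a, Stx12, Kif13a and Clcn7. The block changed no other call. The median of the members stayed between -0.0065 and 0.065 over all alternatives, and that of HOPS between 0.14 and 0.23. Of 38 members 22 kept their sign in all alternatives, and the 16 others had estimates of at most 0.11 in size. Ap3m1 reversed with RLE scaling (0.0034), DESeq2 (0.0032), no filter (0.012) and DESeq2 with the replicate block (0.0036), Bloc1s3 and Vps26a with upper quartile scaling (-0.0014 and -0.0074), and Ap3b1 and the second Ap1g1 entry with no filter (0.0034 and 0.0056). Leaving out single libraries, signs reversed within ranges of -1e-04 to 0.188 for Bloc1s2, -0.1175 to 0.1465 for Bloc1s3, -0.1003 to 0.064 for Bloc1s4, -0.2007 to 0.0396 for Hps6, -0.131 to 0.0313 for Hps1, -0.0334 to 0.0287 for Ap3b1, -0.044 to 0.1281 for Ap3d1, -0.0413 to 0.0344 for Ap3m1, -0.0703 to 0.0127 for Ap3s1, -0.1382 to 0.1161 for the second Ap1g1 entry, -0.072 to 0.0392 for Ap2b1, -0.0152 to 0.1415 for Vps39, -0.0304 to 0.0835 for Vps26a, -0.1155 to 0.0571 for Vps29 and -0.1061 to 0.0146 for Vps35. With the replicate block, leaving out pair 1 reversed Bloc1s3 (-0.2381) and Vps35 (0.0013). Leaving out pair 2 reversed Vps26a (-0.0295), Bloc1s4 (0.0404), Hps6 (0.0519), Hps1 (0.0197), Ap3m1 (5e-04), Ap3s1 (0.0341) and Ap2b1 (0.0031). Leaving out pair 3 reversed Ap3m1 (0.0541), Ap3b1 (0.0218), the second Ap1g1 entry (0.1075), Vps29 (0.0255) and Ap2a1 (-0.001). The cause was not tested. With 3 libraries a group, the median half-width of a member's interval was 0.29 on the log2 scale. That is the width of an unadjusted interval and not a size the adjusted test detects. Oca2 at 1.23 and Tyr at 2.30 missed that test without the block, but their SDs within groups were 0.83 and 0.82 on the log2 scale. The median of that SD over the members was 0.14, so the 2 misses do not show what change would be detected in a member. Intervals cover the spread between these libraries only.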

Other observations

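Paralogous subunits can replace each other within a complex, so their count ratio within a library was read for AP-1 and AP-3, which was chosen after seeing their values. Ap1s2 had 0.63, 0.45 and 0.60 times the counts of Ap1s1 in HPC replicates 1, 2 and 3 and 0.39, 0.31 and 0.55 times in LPC. Ap3m2 had 0.99, 0.70 and 1.24 times the counts of Ap3m1 in HPC and 0.57, 0.58 and 0.92 times in LPC. In both ratios HPC stood above LPC within each equally numbered pair, and HPC replicate 2 lay below LPC replicate 3. Ap3s1 had 0.11, 0.11 and 0.13 times the counts of Ap3s2 in HPC and 0.11, 0.12 and 0.12 times in LPC. These ratios were not tested.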
